A study of Mus musculus with 6 samples.

Results

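Citrate synthase and 8 other enzymes or enzyme subunits of the citric acid cycle (Cs, Idh3a, Idh3b, Ogdh, Suclg1, Sdha, Sdhb, Fh1 and Mdh2) were followed in the fat of NOD mice, which become diabetic through autoimmunity. All 9 were measured, among 13058 genes tested in all. They were found by gene symbol and are represented by 21 probe sets, of which 18 passed a minimum mean signal of 164. The probe set with the highest mean signal over the 6 arrays stood for its gene. RNA from fat was hybridised to 6 arrays, 2 for each of 3 groups of NOD mice. Normoglycemic mice were females of 10 weeks. Diabetic mice had stayed above 300 mg/dl blood glucose on 3 consecutive days. AAT-treated mice had received alpha-1-antitrypsin, a serum protease inhibitor, and had reverted stably to independence from insulin. All groups share the NOD background. In the labels used here only the normoglycemic group has an age and a sex, and no fat depot, dose or pooling of mice is given. Whether the arrays within a group are of different mice is not given either, so each p-value measures the spread of these arrays alone, which may be technical.

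The cycle runs in the mitochondrial matrix. Citrate synthase joins acetyl-CoA to oxaloacetate, later steps oxidise the product and hand electrons to the respiratory chain, and malate dehydrogenase restores oxaloacetate. In fat cells citrate can also leave the mitochondrion for the cytosol, where ATP citrate lyase turns it into the acetyl-CoA from which fatty acids are built. White adipocytes hold fewer mitochondria than brown ones.

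Diabetic fat showed no common direction of the 9 transcripts against normoglycemic fat. Cs, Ogdh, Suclg1 and Mdh2 had higher mean values and Idh3a, Idh3b, Sdha, Sdhb and Fh1 lower ones, 4 and 5 of 9, where 46.4% of all genes had a difference above 0 and 53.6% one below it. With limma and Benjamini-Hochberg adjustment over all genes, 0 of the 9 passed a threshold of 0.05 in any of the 3 comparisons. The lowest adjusted p of a cycle enzyme was 0.498, for Fh1 in diabetic against normoglycemic fat. Before adjustment, Fh1 in that comparison was also the single value of the 9 under 0.05. By the same tool 0% of all genes passed after adjustment in each comparison, and 9.89% were under 0.05 before it in diabetic against normoglycemic fat, 4.78% in AAT-treated against diabetic fat and 5.15% in AAT-treated against normoglycemic fat.

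The promoters of Fh1 and Cs are shown because these genes had the lowest and the highest difference of the 9 between diabetic and normoglycemic fat. The windows run from 250 bases before to 50 after the annotated start and are from RefSeq, build GRCm38.p6. That of Cs lies at chr10:128337477-128337776 on the plus strand and that of Fh1 at chr1:175625586-175625885 on the minus strand. Capitals mark matches, on either strand, to CCAAT, the box bound by NF-Y, and to GGGCGG, the box bound by Sp1.
Cs: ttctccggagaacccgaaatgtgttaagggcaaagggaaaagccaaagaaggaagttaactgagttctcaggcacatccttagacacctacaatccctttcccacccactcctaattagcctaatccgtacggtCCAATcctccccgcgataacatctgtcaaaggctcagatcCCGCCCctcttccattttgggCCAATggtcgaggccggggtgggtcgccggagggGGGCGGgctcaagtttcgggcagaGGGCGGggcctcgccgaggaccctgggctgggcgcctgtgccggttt
Fh1: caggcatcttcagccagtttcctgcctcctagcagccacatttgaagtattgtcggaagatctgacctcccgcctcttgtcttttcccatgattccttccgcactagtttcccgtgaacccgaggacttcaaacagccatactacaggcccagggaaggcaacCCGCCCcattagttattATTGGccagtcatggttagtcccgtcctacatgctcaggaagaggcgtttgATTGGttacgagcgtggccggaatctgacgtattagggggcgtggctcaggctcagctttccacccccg

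Both windows held 2 matches to CCAAT, and GGGCGG matched 3 times in Cs and 1 time in Fh1. Of the 9 genes 8 were in the promoter table, Ogdh with 6 windows and Idh3a with none. CCAAT was found for 6 of the 8 genes (all but Suclg1 and Mdh2) and for 41.1% of all 27025 genes in the table (37.4% of 32851 windows). GGGCGG was found for 5 of the 8 (Cs, Ogdh, Sdhb, Fh1 and Mdh2) and for 38.2% of genes (35.7% of windows). Searched on both strands, AAGGTCA, a site of estrogen-related receptors, was found for Ogdh alone of the 8 and for 5.38% of genes (4.72% of windows). The palindromic element of nuclear respiratory factor NRF1 was found for Sdha alone and for 5.19% of genes. CCGGAAG, read by GABP and other Ets factors, was found for Idh3b and Sdhb and for 9.93% of genes (8.86% of windows). No 2 matches in the windows shown share bases, and a match is a description of the sequence alone.

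The arrays differed in technical measures. Beta-actin control probe sets at the 3' and 5' ends of the transcript, whose ratio goes up when RNA is broken or copied in part, had ratios of 3.63 and 4.30 (normoglycemic), 15.2 and 15.5 (diabetic) and 9.08 and 5.87 (AAT-treated). The hybridisation controls, added in fixed amounts, were brightest on normoglycemic 1 (mean signal 128547) and AAT-treated 2 (86286), against 25159 to 48494 on the other 4. Normoglycemic 1 correlated with the other 5 arrays at 0.755 to 0.839 across genes, and the other arrays among themselves at 0.821 to 0.931. The beta-actin ratio did not overlap between any groups, so it cannot be told apart from group here. The same ratio for Gapdh was 0.910 and 0.946 (normoglycemic), 2.46 and 4.63 (diabetic) and 2.31 and 0.790 (AAT-treated). The hybridisation controls ran with the groups in part. The brightness of the hybridisation controls was fitted as a covariate, and values from that fit are given below for some genes only. In diabetic against normoglycemic fat it also moved Idh3a from −0.69 to −0.27 and Dlst from 0.75 to 0.48. Pcx went from 0.25 to 1.02 and Slc25a10 from 1.34 to 1.87. In AAT-treated against normoglycemic fat Idh3a went from −0.31 to −0.035 and Fh1 from −0.45 to −0.18. The part of the beta-actin ratio was not tested. The adipocyte genes Adipoq, Cidec, Lipe, Fabp4 and Pparg, 5 of 6 listed, were measured on every array. Their summed signal was 435412 and 250836 (normoglycemic), 151347 and 237090 (diabetic) and 153210 and 282526 (AAT-treated), so the diabetic arrays lay below both normoglycemic ones. Fabp4 made up most of this sum (339475 of 435412 on normoglycemic 1), and on diabetic 2 Adipoq (48984) and Lipe (14312) lay above both normoglycemic arrays. In whole tissue, fewer cells of a type and less RNA per cell cannot be told apart.

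Markers of other cell types were measured on the same arrays. Ucp1, which defines brown fat, had signals of 4.72 to 124, under the minimum, and the 6 brown fat genes listed summed to 3254 and 1917 (normoglycemic), 2995 and 1254 (diabetic) and 1424 and 1252 (AAT-treated). The summed signal of 8 skeletal muscle genes, of which 3 passed the minimum, was 1926 and 2584 (normoglycemic), 1180 and 1535 (diabetic) and 5046 and 1016 (AAT-treated). The high value of AAT-treated 1 came mainly from the myosin Myh1, with 2659 of the 5046. Macrophage genes (6 of 6 measured) summed to 6162 and 6039, 11799 and 24055, and 12860 and 8199 in the same order of groups, so that the diabetic arrays lay above the normoglycemic ones. On diabetic 1 this came mainly from Csf1r (5460) and C1qb (2896), while Cd68, C1qa and Lyz2 were not above both normoglycemic arrays there. Smooth muscle genes (6 of 6) summed to 53460 and 81932 in AAT-treated fat, against 6777 to 28146 on the other 4 arrays. Red cell and platelet genes (5 of 5) summed to 9436 and 12148 (normoglycemic), 2602 and 3196 (diabetic) and 10905 and 4047 (AAT-treated). Of these, Pf4 overlapped between normoglycemic (3476 and 1634) and diabetic fat (1405 and 2032). Mesothelium genes (4 of 4) summed to 4741 and 7115 in AAT-treated fat, against 2389 to 3396 on the other 4 arrays. There Msln (804 and 280) and Krt19 (442 and 2501) overlapped the other groups. The part of these cell types in the values of the cycle genes was not tested.

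**Figure D1:**
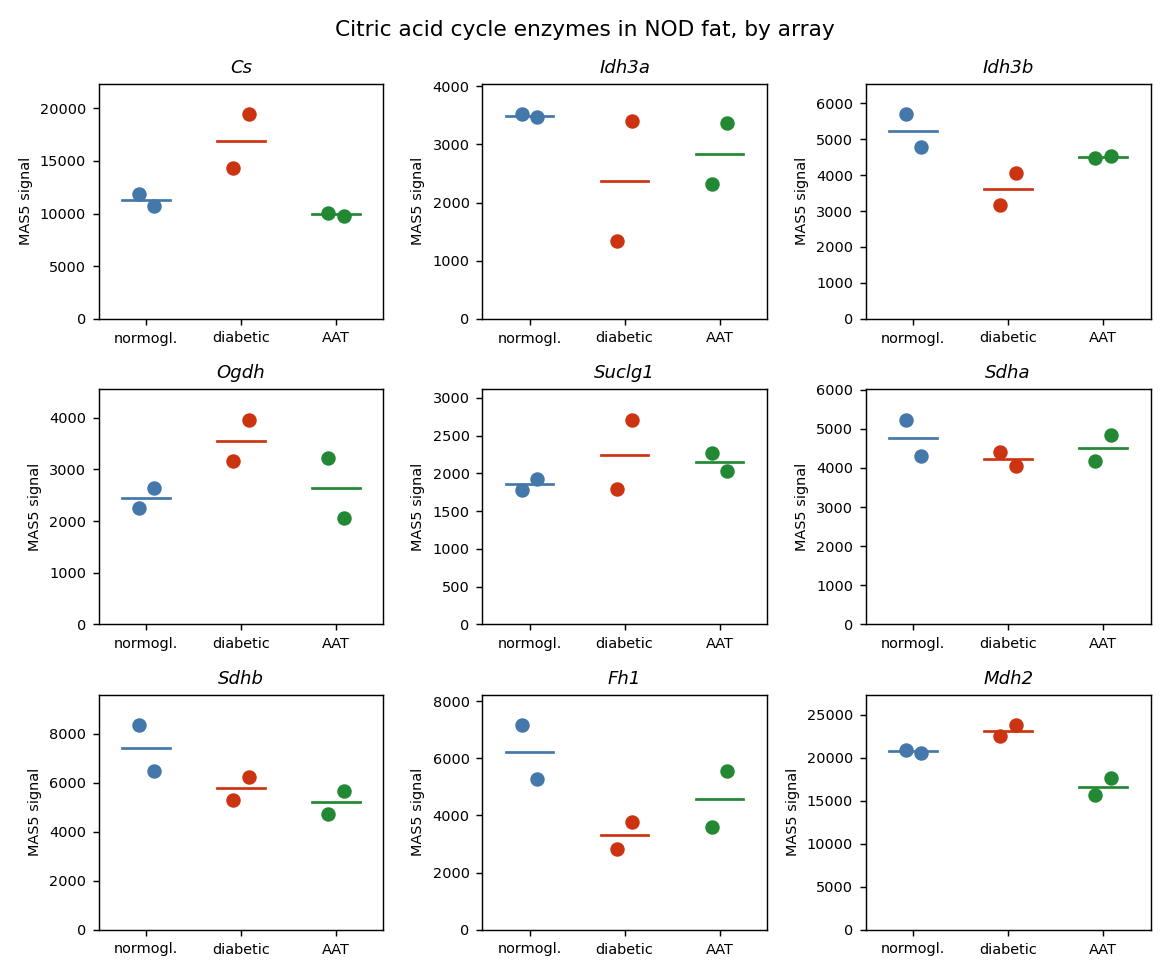
MAS5 signal (vertical axes, linear from 0) of the 9 cycle enzymes in fat of normoglycemic, diabetic and AAT-treated NOD mice. Each point is 1 array and each line the mean of 2. Both diabetic arrays lay below both normoglycemic ones for Idh3a, Idh3b, Sdhb and Fh1 and above them for Cs, Ogdh and Mdh2. Of all genes 24.5% lay below and 20.2% above in this way.

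The entry step of the cycle had its highest signals in diabetic fat. Cs, citrate synthase, had signals of 11884 and 10671 (normoglycemic), 14361 and 19424 (diabetic) and 10097 and 9744 (AAT-treated). The 3 groups did not overlap, with diabetic highest and AAT-treated lowest. On the log2 scale, which here is log2 of the signal plus 74, the diabetic mean was 0.57 ± 0.35 (SE from limma, n = 2 arrays a group) above the normoglycemic one, with a 95% interval from −0.24 to 1.37 (adjusted p = 0.6). The AAT-treated mean differed from the diabetic one by −0.75 ± 0.35, with an interval from −1.55 to 0.054 (unadjusted p = 0.0638, adjusted p = 0.961 in limma). Against normoglycemic fat the AAT-treated mean differed by −0.18 ± 0.35, within the error. The probe set that stands for Cs was alone in this. Its other 2 probe sets differed by −0.0008 ± 0.38 and 0.02 ± 0.34 between diabetic and normoglycemic fat. They differed by −0.06 ± 0.38 and −0.19 ± 0.34 between AAT-treated and diabetic fat. Averaged over its 3 probe sets, Cs differed by 0.20 in the first and by −0.34 in the second of these comparisons.

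Mdh2, the mitochondrial malate dehydrogenase that closes the cycle, had close values within each group. Its signals were 20871 and 20580 (normoglycemic), 22544 and 23758 (diabetic) and 15705 and 17587 (AAT-treated). As for Cs, the groups did not overlap and diabetic fat was highest. The differences were 0.16 ± 0.36 for diabetic against normoglycemic, −0.48 ± 0.36 for AAT-treated against diabetic and −0.32 ± 0.36 for AAT-treated against normoglycemic fat. The SE exceeds the spread of these arrays because limma draws each gene's variance towards that of genes with a like signal. The second probe set of Mdh2 had the same signs, at 0.04, −0.21 and −0.17.

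Isocitrate dehydrogenase 3, the NAD-dependent enzyme that commits isocitrate to oxidation, has a catalytic subunit encoded by Idh3a and the other subunits by Idh3b and Idh3g. Idh3a had signals of 3518 and 3463 (normoglycemic), 1335 and 3405 (diabetic) and 2320 and 3367 (AAT-treated). The group means were ordered normoglycemic, AAT-treated, diabetic, but only diabetic 1 was far below the rest, and diabetic 2 lay close to both normoglycemic arrays. Diabetic against normoglycemic fat differed by −0.69 ± 0.45 (interval −1.72 to 0.35), by −1.34 without diabetic 2 and by −0.035 without diabetic 1. For AAT-treated against diabetic fat the difference was 0.37 ± 0.45, and it was −0.28 without diabetic 1. All 3 further probe sets of Idh3a were also lower in diabetic than in normoglycemic fat, by −0.34 to −1.16, and diabetic 1 was the lowest array on one of them, at 48.4 against 297 to 513.

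Idh3b had signals of 5690 and 4782 (normoglycemic), 3173 and 4071 (diabetic) and 4476 and 4541 (AAT-treated). The groups were apart, with normoglycemic highest and diabetic lowest. The differences were −0.53 ± 0.32 for diabetic against normoglycemic fat (interval −1.26 to 0.20), 0.32 ± 0.32 for AAT-treated against diabetic and −0.21 ± 0.32 for AAT-treated against normoglycemic fat. Its second kept probe set differed by −0.06 ± 0.35, −0.17 ± 0.35 and −0.23 ± 0.35, close to the first in the last comparison only and of opposite sign in the one before. The remaining subunit, Idh3g, differed by 0.43 ± 0.35 between diabetic and normoglycemic fat and by −0.55 ± 0.35 between AAT-treated and diabetic fat. Its second probe set went the other way in both, by −1.34 ± 0.37 (unadjusted p = 0.00566 in limma over probe sets) and 0.77 ± 0.37. All kept probe sets of Idh3a and Idh3b, then, had negative differences from normoglycemic fat in both other groups. Of all genes 53.6% (diabetic) and 52.0% (AAT-treated) had such a sign, and probe sets of a gene share their arrays. The values were as small as −0.06 (Idh3b, diabetic) and −0.11 (Idh3a, AAT-treated). The kept probe sets of Idh3g disagreed in both comparisons with diabetic fat.

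The 2-oxoglutarate dehydrogenase complex turns 2-oxoglutarate into succinyl-CoA. Its first component, Ogdh, had signals of 2251 and 2646 (normoglycemic), 3157 and 3958 (diabetic) and 3228 and 2061 (AAT-treated). Diabetic fat lay above normoglycemic fat, and the AAT-treated arrays overlapped both groups, with AAT-treated 2 the lowest of all 6. Ogdh differed by 0.52 ± 0.34 between diabetic and normoglycemic fat (interval −0.27 to 1.31) and by −0.44 ± 0.34 between AAT-treated and diabetic fat, the latter at −0.13 without AAT-treated 2. Against normoglycemic fat the AAT-treated mean differed by 0.08 ± 0.34. The second component, the succinyltransferase Dlst, had signals of 1676 and 2520, 3044 and 4062, and 3023 and 2045 in the same order of groups, and differences of 0.75 ± 0.36, −0.49 ± 0.36 and 0.27 ± 0.36. All 3 further probe sets of Dlst were likewise higher in diabetic than in normoglycemic fat, by 0.96 ± 0.35, 0.30 ± 0.47 and 1.21 ± 0.56. The one at 1.21 had normoglycemic signals of 41.4 and 170, and the one at 0.30 had 127 and 299. On both, normoglycemic 1 lay under the minimum signal, so neither value gives a size. Dld, the dehydrogenase that this complex shares with pyruvate dehydrogenase, had the opposite sign. Its signals were 2735 and 1864 (normoglycemic), 850 and 1114 (diabetic) and 855 and 2465 (AAT-treated), and diabetic fat differed by −1.15 ± 0.48 (unadjusted p = 0.043, adjusted p = 0.498 in limma). With the hybridisation controls as a covariate this was −0.45.

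Succinyl-CoA ligase makes a nucleoside triphosphate directly, with an alpha subunit (Suclg1) that pairs with Suclg2 or Sucla2. Suclg1 had signals of 1780 and 1926 (normoglycemic), 1787 and 2710 (diabetic) and 2267 and 2028 (AAT-treated). Diabetic fat overlapped both other groups, and AAT-treated fat lay above normoglycemic fat. The differences were 0.24 ± 0.33 for diabetic against normoglycemic fat (interval −0.51 to 0.99), −0.04 ± 0.33 for AAT-treated against diabetic and 0.20 ± 0.33 for AAT-treated against normoglycemic fat, and none exceeded its error. The first of these was −0.049 without diabetic 2. Sucla2 differed by −0.03 ± 0.32, −0.27 ± 0.32 and −0.31 ± 0.32 and Suclg2 by −0.32 ± 0.49, 0.10 ± 0.49 and −0.22 ± 0.49 in the same 3 comparisons.

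Succinate dehydrogenase is part of both the cycle and the respiratory chain, where it is complex II. Its flavoprotein Sdha had signals of 5229 and 4309 (normoglycemic), 4407 and 4037 (diabetic) and 4174 and 4846 (AAT-treated). No pair of groups was apart, and the differences were −0.17 ± 0.31, 0.09 ± 0.31 and −0.08 ± 0.31 in the order given above. The interval of the first, −0.89 to 0.55, allows changes of either sign. A second probe set of Sdha differed by −0.71 ± 0.34 between diabetic and normoglycemic fat. Sdhb, the iron-sulfur subunit, had signals of 8353 and 6475 (normoglycemic), 5323 and 6248 (diabetic) and 4742 and 5672 (AAT-treated). Both other groups lay below normoglycemic fat and overlapped each other. Sdhb differed by −0.35 ± 0.33 between diabetic and normoglycemic fat, −0.15 ± 0.33 between AAT-treated and diabetic fat and −0.50 ± 0.33 between AAT-treated and normoglycemic fat (interval −1.26 to 0.26). The first was −0.17 without normoglycemic 1.

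The membrane anchors Sdhc and Sdhd were also lower in diabetic than in normoglycemic fat, at −0.55 ± 0.35 and −0.41 ± 0.32, and neither passed the test. A second probe set of Sdhc had the opposite sign (0.11 ± 0.41) and that of Sdhd the same (−0.29 ± 0.38). In AAT-treated against diabetic fat Sdhc differed by 0.19 ± 0.35 and Sdhd by 0.37 ± 0.32, and in AAT-treated against normoglycemic fat they differed by −0.36 ± 0.35 and −0.04 ± 0.32. The probe sets standing for all 4 subunits thus had negative differences between diabetic and normoglycemic fat, where 53.6% of all genes did. With the hybridisation controls as a covariate they were −0.041 (Sdha), −0.12 (Sdhb), −0.18 (Sdhc) and −0.19 (Sdhd). The complex as a whole was not tested.

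Fumarase, which hydrates fumarate to malate, had the largest difference of the 9 in size. Fh1 signals were 7151 and 5262 (normoglycemic), 2832 and 3772 (diabetic) and 3610 and 5566 (AAT-treated). Both diabetic arrays lay below both normoglycemic ones, and the AAT-treated arrays overlapped each group. Fh1 differed by −0.89 ± 0.37 between diabetic and normoglycemic fat (interval −1.73 to −0.055, unadjusted p = 0.0394, adjusted p = 0.498 in limma), which is 0.538 times the normoglycemic value on this scale. It was −0.67 without normoglycemic 1, −1.11 without normoglycemic 2 and −0.49 with the brightness of the hybridisation controls as a covariate. The AAT-treated mean differed from the diabetic one by 0.45 ± 0.37, and by 0.14 without AAT-treated 2. Against normoglycemic fat it differed by −0.45 ± 0.37. Fh1 has 1 probe set, so no second measure of it exists on these arrays.

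**Figure D2:**
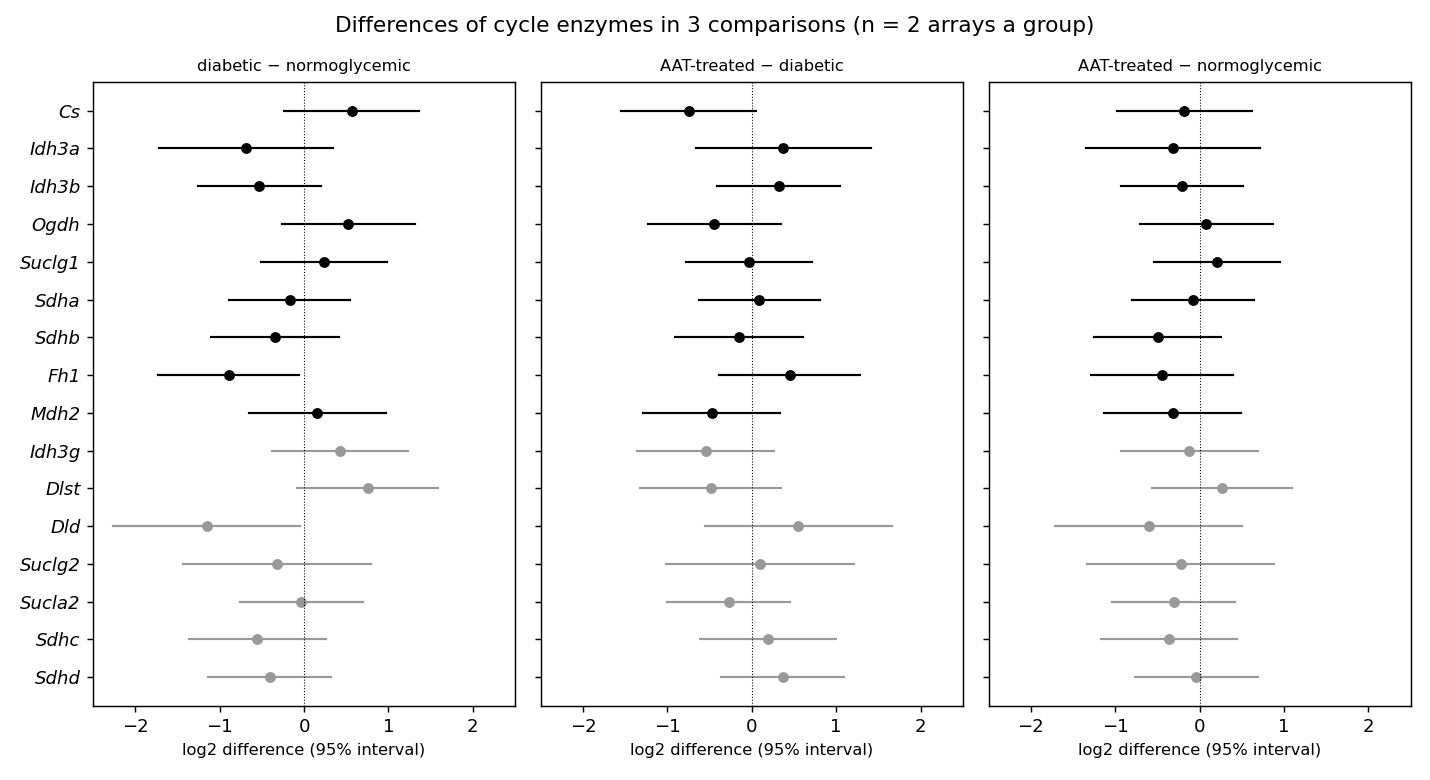
Log2 differences (horizontal axes) with 95% intervals from limma for the 9 enzymes (black) and 7 other subunits of the cycle (grey) in 3 comparisons, n = 2 arrays a group. Of the 9, the interval of Fh1 in diabetic against normoglycemic fat, from −1.73 to −0.055, leaves out 0, and those of the other 8 in that panel do not.

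Over the 9 enzymes the differences lay on both sides of 0. Their median difference was −0.17 in diabetic against normoglycemic fat (range −0.89 to 0.57), beside −0.055 over all 13058 genes. It was −0.037 in AAT-treated against diabetic fat (−0.75 to 0.45), beside 0.011 over all genes, and −0.21 in AAT-treated against normoglycemic fat (−0.50 to 0.20), beside −0.025. The mean log2 level of the 9 was 12.43 ± 0.093 (SD, n = 2) in normoglycemic, 12.31 ± 0.28 in diabetic and 12.24 ± 0.075 in AAT-treated fat. The diabetic arrays, at 12.11 and 12.50, held both the lowest and the highest mean of all 6, so the order of the group means lies within the spread of the diabetic group. In AAT-treated against diabetic fat 4 of the 9 had higher values and 5 lower ones, where 51.2% and 48.8% of all genes did. In AAT-treated against normoglycemic fat 2 were higher (Ogdh and Suclg1) and 7 lower, where 48.0% and 52.0% of all genes were. Without diabetic 1 the median of AAT-treated against diabetic fat was −0.28.

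The groups were apart for 7 of the 9 between diabetic and normoglycemic fat, 3 higher in diabetic fat (Cs, Ogdh and Mdh2) and 4 lower (Idh3a, Idh3b, Sdhb and Fh1). Over all genes the share was 44.7%, with 20.2% higher and 24.5% lower. Between AAT-treated and diabetic fat 3 of 9 were apart (Idh3b higher, Cs and Mdh2 lower), against 33.8% of all genes (17.9% higher and 15.9% lower), a share near the background. Between AAT-treated and normoglycemic fat 6 of 9 were apart, Suclg1 higher and Cs, Idh3a, Idh3b, Sdhb and Mdh2 lower, against 32.1% of all genes (16.0% higher and 16.1% lower). The comparisons share arrays: diabetic ones enter the first and second listed, AAT-treated ones the last 2, and normoglycemic ones the first and last. With 2 arrays a group, arrays apart do not amount to a call, and no call was made by limma.

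Most further probe sets of a gene had the sign of the one standing for it, but sign alone is counted here and sizes differed. Between diabetic and normoglycemic fat those of Cs were 0.02 and −0.0008 beside 0.57, and that of Idh3b −0.06 beside −0.53. A further one of Sdha, at −0.71 beside −0.17, was larger in size, as was one of Idh3a, at −1.16 beside −0.69. Among the 9 members, 9 further probe sets passed the minimum, and 1 of them, of Cs, had the opposite sign of the one standing for its gene between diabetic and normoglycemic fat. Between AAT-treated and diabetic fat 2 did (Idh3a and Idh3b), and between AAT-treated and normoglycemic fat 1 did (Sdha). Of the 8 further probe sets of the other subunits, 2 had the opposite sign in each comparison, among them that of Idh3g in the first and second. The signal of the first Idh3g probe set over that of the second was 1.23 and 1.39 on the normoglycemic, 5.21 and 4.02 on the diabetic and 2.86 and 1.13 on the AAT-treated arrays. That ratio was high on the arrays with a high 3' to 5' ratio of beta-actin, and on a log2 scale both had an r of 0.941 over the 6 arrays. For Sdha the ratio of its first to its second probe set was 1.51 and 1.14 on the diabetic arrays and 0.823 to 1.10 on the other 4, with an r of 0.809. For Idh3b the ratio was 1.49 and 1.69, 1.23 and 1.06, and 1.53 and 1.70, with an r of −0.806. Over the 17 such ratios of cycle genes r ran from −0.806 to 0.941, of either sign, and a ratio within an array shows unequal change of its parts only. The part of RNA quality in the differences was not tested.

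**Figure D3:**
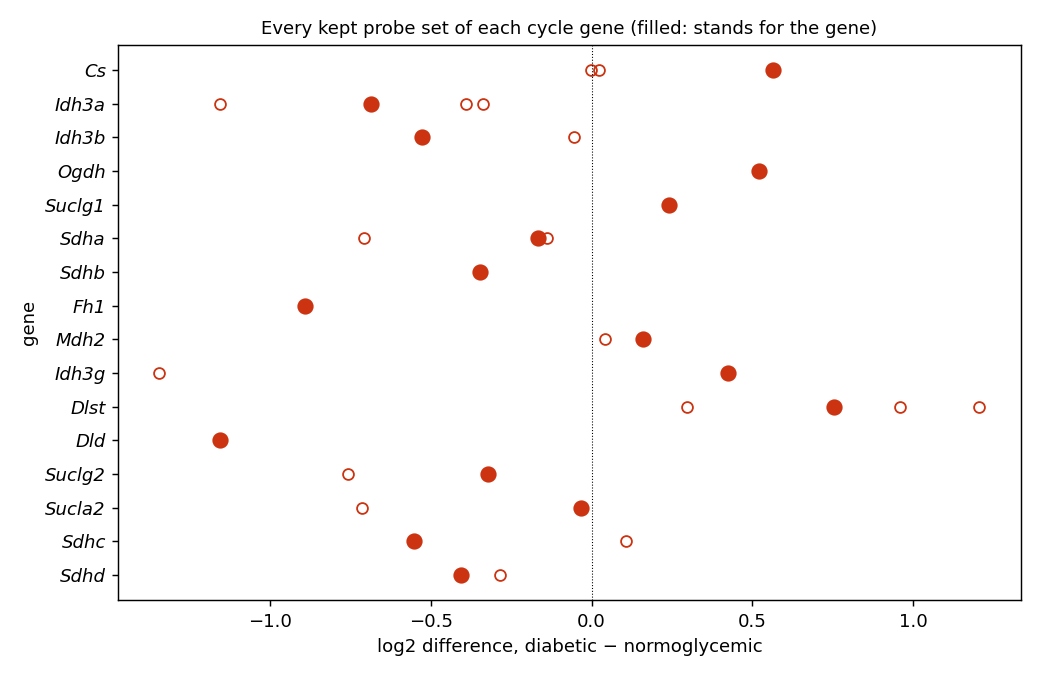
Log2 difference between diabetic and normoglycemic fat (horizontal axis) for every probe set over the minimum signal of each cycle gene (vertical axis). The filled point stands for the gene. For Idh3g the points lie at 0.43 and −1.34, and for Cs at 0.57, 0.02 and −0.0008.

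**Figure D4:**
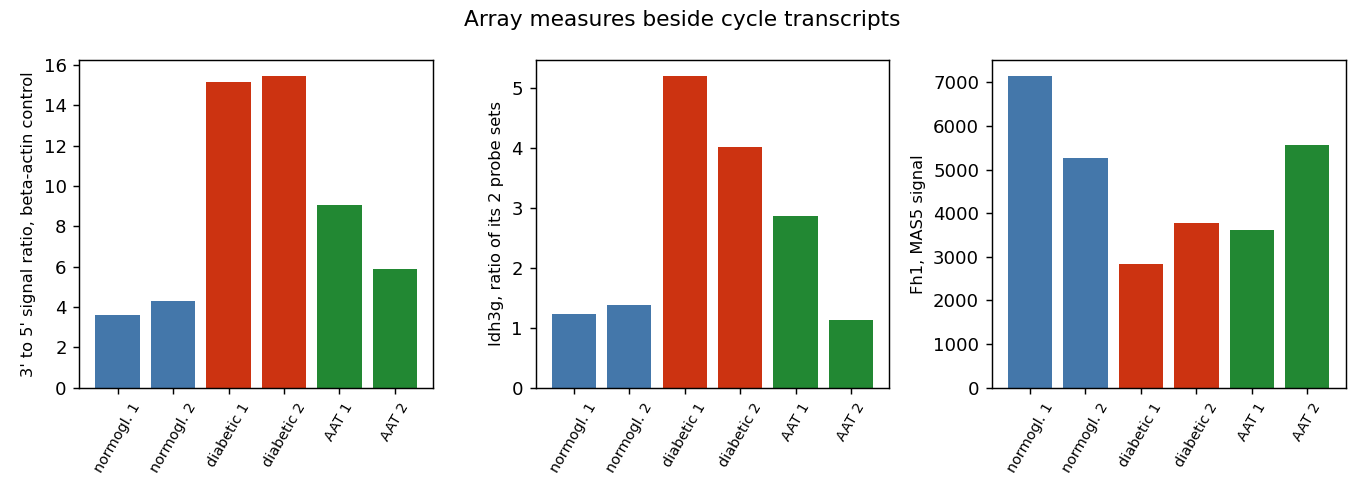
For each of the 6 arrays (horizontal axes), the 3' to 5' signal ratio of the beta-actin control (left), the ratio of the 2 probe sets of Idh3g (middle) and the MAS5 signal of Fh1 (right). Bars start at 0; the diabetic arrays are highest in the left and middle panels, and Fh1 was lowest on diabetic 1 at 2832.

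Among the other subunits of the cycle, 7 of 8 listed were tested and 0 passed the adjusted threshold in any comparison by limma. Between diabetic and normoglycemic fat 2 of 7 had higher values and 5 lower ones, with a median of −0.32, and 1 (Dld, lower) was under 0.05 before adjustment, where 4.62% of all genes were lower at that level. In AAT-treated against diabetic fat 4 were higher and 3 lower, with a median of 0.10, and Dld differed by 0.55 ± 0.48. In AAT-treated against normoglycemic fat 1 was higher and 6 lower, with a median of −0.22, and Dld differed by −0.60 ± 0.48 and Idh3g by −0.12 ± 0.35.

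Pyruvate enters the cycle through pyruvate dehydrogenase, which kinases of the Pdk family switch off, or through pyruvate carboxylase (Pcx). Of 13 genes listed 12 were tested, and 0 passed after adjustment in any comparison. Between diabetic and normoglycemic fat 4 were higher and 8 lower, with a median of −0.31. The kinase Pdk4 was the one gene of this list under 0.05 before adjustment in that comparison, where 9.89% of all genes were. Its signals were 4986 and 4492 (normoglycemic), 1828 and 1732 (diabetic) and 10568 and 7964 (AAT-treated). The 3 groups were apart, with diabetic fat lowest and AAT-treated fat highest. Pdk4 differed by −1.37 ± 0.32 between diabetic and normoglycemic fat (adjusted p = 0.459), by 2.32 ± 0.32 between AAT-treated and diabetic fat (unadjusted p = 6.8e-05, adjusted p = 0.294) and by 0.94 ± 0.32 between AAT-treated and normoglycemic fat (adjusted p = 0.891), all in limma. The pyruvate carrier Mpc1 differed by −0.95 ± 0.51 between diabetic and normoglycemic fat, but by −0.45 without normoglycemic 1, −1.46 without normoglycemic 2 and −0.20 with the hybridisation covariate. Dlat of the dehydrogenase differed by 0.18 ± 0.34 and Pcx by 0.25 ± 0.52.

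In AAT-treated against diabetic fat the pyruvate list split evenly, 6 higher and 6 lower, with a median of −0.019, and Pdk4 alone had a higher value under 0.05 before adjustment, where 2.95% of all genes did. The kinase Pdk3 had diabetic signals of 15.8 and 140, both under the minimum of 164, so it was kept only through the other groups. Its fitted difference of 1.06 ± 0.61 was 0.44 without diabetic 1 and 2.14 with a pseudocount of 1, and gives no size. Pcx differed by −0.69 ± 0.52 and Pdhx, which tethers a component of the dehydrogenase, by −0.41 ± 0.34. In AAT-treated against normoglycemic fat 2 were higher and 10 lower, with a median of −0.24, and Pdk4 was again the one higher value under 0.05 before adjustment, where 3.43% of all genes had one. Pdk2 differed by 0.50 ± 0.36, Mpc1 by −1.08 ± 0.51 (−0.41 without AAT-treated 1) and Pdhx by −0.73 ± 0.34.

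Carriers and enzymes that exchange citrate, malate and glutamate between mitochondrion and cytosol formed the next list. Of 15 listed 13 were tested, and 0 passed after adjustment. Acly, which cleaves cytosolic citrate, had signals of 4414 and 3151 (normoglycemic), 13867 and 17252 (diabetic) and 4222 and 3242 (AAT-treated). Diabetic fat was far above both other groups, which overlapped. Acly differed by 2.03 ± 0.35 between diabetic and normoglycemic fat (adjusted p = 0.362) and by −2.04 ± 0.35 between AAT-treated and diabetic fat (adjusted p = 0.388 in limma). These values rest on 1 probe set: with the mean of the kept probe sets of Acly they were 0.38 and −0.56. The dicarboxylate carrier Slc25a10 differed by 1.34 ± 0.55 in the first of these. Diabetic 2 (8581) carried that value, beside 2351 on diabetic 1 and 1908 and 1569 in normoglycemic fat, and it was 0.43 without diabetic 2 and 2.26 without diabetic 1. With the mean of its kept probe sets Slc25a10 differed by 0.93. Slc25a10 and Acly were the 2 of 13 with higher values under 0.05 before adjustment, where 5.27% of all genes were. The oxoglutarate carrier Slc25a11 differed by −0.52 ± 0.34, and by −0.20 without diabetic 1. The transaminase Got1 had signals of 298 and 253 in normoglycemic fat against 47.1 and 132 in diabetic fat, under the minimum of 164. It was kept only through the groups where it is high, and its fitted difference of −1.14 ± 0.54, which was −0.61 with the hybridisation covariate and −1.79 with a pseudocount of 1, gives no size.

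Between AAT-treated and diabetic fat 6 of these 13 had lower values under 0.05 before adjustment, against 1.83% of all genes, and the list's median was −0.45. Beside Acly, the malic enzyme Me1 differed by −1.49 ± 0.47, or by −0.90 with the mean of its kept probe sets. The aspartate carrier Slc25a12 differed by 0.63 ± 0.31, or by 0.17 with that mean. Got1, again against diabetic signals under the minimum, had a fitted difference of 1.29 ± 0.54 that ran from 0.86 to 1.95 with the pseudocount. This comparison shares its diabetic arrays with the one before. Between AAT-treated and normoglycemic fat the median was −0.22, and the citrate carrier Slc25a1 differed by −0.73 ± 0.41 (−0.30 without normoglycemic 1). Cytosolic aconitase Aco1 differed by −0.55 ± 0.36, or by −0.26 with the mean of its kept probe sets. Slc25a12 and Got1 differed by 0.17 ± 0.31 and 0.15 ± 0.54.

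Genes of mitochondrial biogenesis and the outer membrane showed no common direction either. All 12 were tested and 0 passed after adjustment. Between diabetic and normoglycemic fat 5 were higher and 7 lower, with a median of −0.22. The estrogen-related receptor Esrra, a regulator of oxidative genes, had signals of 561 and 519 (normoglycemic), 810 and 1105 (diabetic) and 596 and 546 (AAT-treated), with diabetic fat above both other groups. It differed by 0.73 ± 0.32 and by −0.66 ± 0.32 in the comparisons with diabetic fat. Its coactivator Ppargc1b differed by 1.52 ± 0.73 and −2.32 ± 0.73. The first of these was 0.58 with the hybridisation covariate and 0.92 without diabetic 1, and the second −1.10 without AAT-treated 2 and −3.54 without AAT-treated 1. The mitochondrial transcription factor Tfb2m differed by −0.86 ± 0.32 in the first comparison and the porin Vdac2 by −0.50 ± 0.31 and 0.33 ± 0.31. Gabpa differed by 0.30 ± 0.30 in the second. Between AAT-treated and normoglycemic fat 3 were higher and 9 lower, with a median of −0.15. Tfb2m, at −0.74 ± 0.32 (−0.49 without normoglycemic 1), was the one lower value under 0.05 before adjustment, where 1.72% of all genes had one. Ppargc1b, again with AAT-treated 2 under the minimum, differed by −0.80 ± 0.73. Ppargc1a differed by 0.10 ± 0.48 and Esrra by 0.07 ± 0.32.

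Factors that assemble succinate dehydrogenase were tested as well, 4 of 4. Sdhaf3, which helps to insert iron-sulfur clusters into Sdhb, had signals of 745 and 769 (normoglycemic), 364 and 366 (diabetic) and 343 and 326 (AAT-treated). Both other groups lay below normoglycemic fat with close agreement within each group. Sdhaf3 differed by −0.92 ± 0.32 between diabetic and normoglycemic fat (unadjusted p = 0.0192, adjusted p = 0.482) and by −1.02 ± 0.32 between AAT-treated and normoglycemic fat (unadjusted p = 0.0116, adjusted p = 0.891 in limma). Between AAT-treated and diabetic fat it differed by −0.10 ± 0.32. Sdhaf4, a partner of flavinated Sdha, had signals of 1789 and 1041, 707 and 532, and 925 and 821, and differed by −1.07 ± 0.36, 0.46 ± 0.36 and −0.61 ± 0.36. Its difference between diabetic and normoglycemic fat was −0.70 without normoglycemic 1. Sdhaf1 differed by 0.09 ± 0.45, −0.03 ± 0.45 and 0.06 ± 0.45. Sdhaf2, which attaches flavin to Sdha, differed by 0.54 ± 0.32 between AAT-treated and diabetic fat, or by 0.26 with the mean of its kept probe sets. So 2 of 4 had lower values under 0.05 before adjustment between diabetic and normoglycemic fat, where 4.62% of all genes did, and 0 passed after it.

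**Figure D5:**
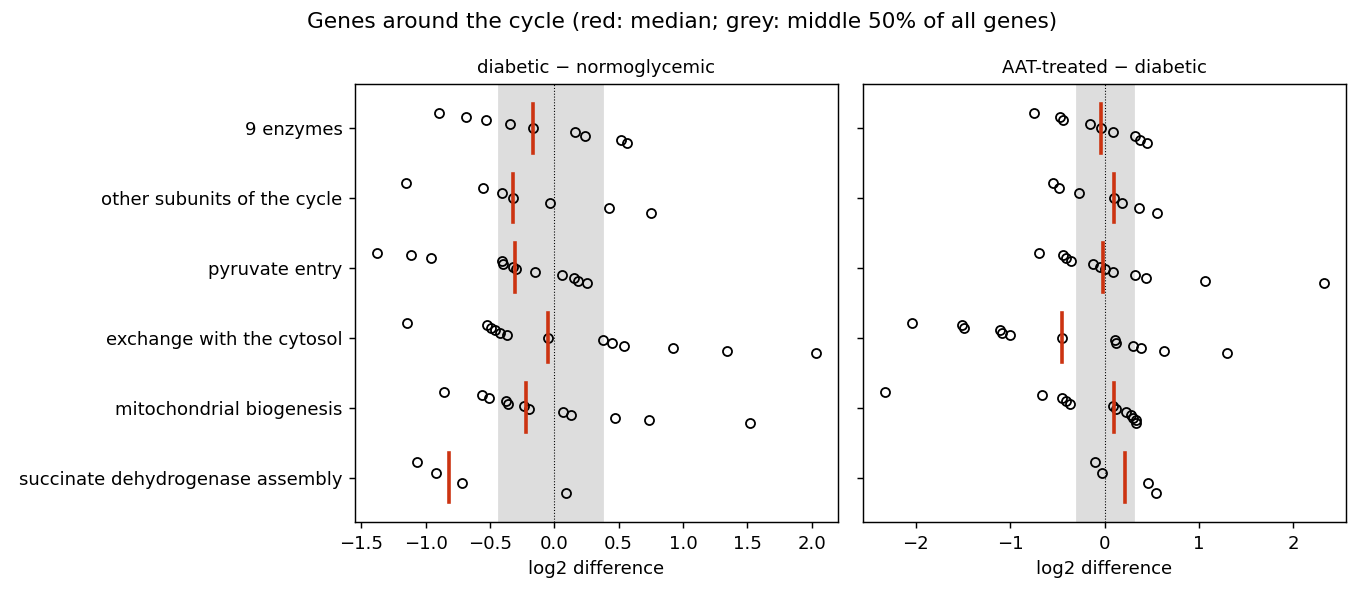
Log2 differences (horizontal axes) of the 9 enzymes and of 5 lists of related genes in 2 comparisons that share the diabetic arrays. Each circle is a gene, the red line the list's median and the grey band the middle 50% of all 13058 genes; the medians of the 9 enzymes, −0.17 and −0.037, lie inside it.

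The genes whose values ran most like the mean of the 9 over the 6 arrays were Taf10 (Pearson r = 0.989), Scoc (0.983), Mcur1 (0.983), Bin1 (0.980) and Nsdhl (0.979). Taf10, a subunit of the general transcription factor TFIID, had signals of 5096 and 4417 (normoglycemic), 3234 and 4924 (diabetic) and 3738 and 4082 (AAT-treated). Like the mean of the 9, it was lowest on diabetic 1, and its group differences of −0.24 ± 0.34, −0.03 ± 0.34 and −0.28 ± 0.34 were within their errors. These r values were picked as the highest of all genes tested, over 6 arrays scaled alike, and are given as a description.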

How the data were processed

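Fat RNA of NOD mice was isolated with Trizol and biotin-labelled in the single-cycle Affymetrix procedure, per the labels' protocols. The authors deposited linear MAS5 intensities for 45101 probe sets on 6 arrays, as the submitters' processing notes name the tool without a version. A trimmed mean, leaving out 2% of probe sets at each end, came to 500.0 on every array, so this scaling was kept. Arrays have no read depth, and their number limits the precision.

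Probe sets with 1 gene symbol in the platform annotation were used (34945; 932 had several, 9160 none, 64 were controls), of which 34741 matched RefSeq by gene identifier. Values were taken as log2(signal + 74), the 25th percentile of all values, which understates differences of weak genes. Probe sets with a mean signal above 164 (the 40th percentile) were kept, 22101 in all, for 13058 genes. The comparisons used limma 3.58.1 under R 4.3.3 (3 group means, eBayes with trend, 3 residual and 5.37 prior degrees of freedom, 2-sided, Benjamini-Hochberg over all genes). The procedure was tested on simulated data for diabetic against normoglycemic fat. There 2.54% of 2-fold and 55.4% of 4-fold changes passed the adjusted threshold, with 8.85 false calls a run. That no gene passed therefore does not show that 2-fold changes are absent. An r is given without a p.

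The members and gene lists were chosen with earlier results of these data known. The text names the 9 members, the other subunits of the cycle, the 2 genes of each further list with the smallest p in each direction of a comparison, and the 5 genes most like the mean of the members. Promoters came from RefSeq, build GRCm38.p6, and were searched in Python 3.11.15. Alternatives were other pseudocounts (1 and 200), no filter, quantile normalization, the mean of a gene's probe sets, robust eBayes (statmod 1.5.0), the compared groups alone, a replicate block, the hybridisation controls as a covariate, leaving out each array in turn and, chosen after seeing the data, leaving out normoglycemic 1 and AAT-treated 2 together.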

Additional observations from a re-analysis of the deposited data

How the results depend on the processing

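Results were recomputed under 16 alternatives. The count of cycle enzymes past the adjusted threshold was 0 in each comparison under every one. Of 94 gene differences named, 26 changed sign in at least 1 alternative, 9 of them only where 1 array was left out, and the largest of those 26 was 0.80 in size (Ppargc1b). With no filter on signal, 1 gene in all passed in AAT-treated against diabetic fat. Leaving out arrays gave 0 to 3 genes in AAT-treated against normoglycemic fat, 3 without normoglycemic 2, where the lone array is assumed to vary like the other groups. The median of the 9 in AAT-treated against diabetic fat ran from −0.28 without diabetic 1 to 0.029 without diabetic 2. After quantile normalization 1 of the 9 had a higher value in AAT-treated than in normoglycemic fat, and there Ogdh differed by −0.0442 and Sdhaf1 by −0.019. With the mean of kept probe sets Idh3g differed by −0.46 (diabetic against normoglycemic) and 0.11 (AAT-treated against diabetic), and Sdhd by 0.0736 (AAT-treated against normoglycemic). With the hybridisation controls as a covariate, Ogdh differed by −0.066, Sdha by 0.0071 and Sdhd by 0.11 in that last comparison. In diabetic against normoglycemic fat, leaving out arrays gave values on both sides of 0, for Suclg1 from −0.049 to 0.53, Suclg2 from −0.96 to 0.31, Sucla2 from −0.11 to 0.043, Dlat from −0.055 to 0.42, Pcx from −0.39 to 0.89 and Sdhaf1 from −0.42 to 0.59. In AAT-treated against diabetic fat, leaving out arrays gave values on both sides of 0, for Idh3a from −0.28 to 1.03, Suclg1 from −0.33 to 0.25, Sdha from −0.015 to 0.20, Dld from −0.17 to 1.28, Suclg2 from −0.37 to 0.57, Sdhc from −0.14 to 0.52 and Sdhaf1 from −0.47 to 0.40. In AAT-treated against normoglycemic fat, leaving out arrays gave values on both sides of 0, for Ogdh from −0.24 to 0.39, Sdha from −0.21 to 0.061, Idh3g from −0.45 to 0.29, Dlst from −0.018 to 0.55, Dld from −1.33 to 0.12, Suclg2 from −0.86 to 0.41, Sdhd from −0.28 to 0.21, Got1 from −0.36 to 0.66, Ppargc1b from −2.02 to 0.59, Ppargc1a from −0.38 to 0.57 and Sdhaf1 from −0.45 to 0.56. The cause was not tested.

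The labels give no pairing of arrays by replicate number. Deviations of same-numbered arrays correlated at 0.076 (normoglycemic and diabetic), −0.12 (diabetic and AAT-treated) and −0.50 (normoglycemic and AAT-treated) across genes. Such values cannot show whether same-numbered arrays shared an animal or a day. The last value runs against the numbering. Normoglycemic 2 correlated at 0.931 with AAT-treated 1, and normoglycemic 1 at 0.839 with AAT-treated 2. Within these groups the arrays correlated at 0.837 (normoglycemic) and 0.860 (AAT-treated). A block of same-numbered arrays does not take up this likeness, and its source was not tested. With the replicate block the median difference of the 9 in diabetic against normoglycemic fat was −0.17 and 0 genes passed in that comparison.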
